A study of Arabidopsis thaliana with 48 samples.

Results

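Shoot apices of the Arabidopsis thaliana lines qem2 and chr4-2 were compared after 3 weeks of short days by RNA sequencing. The comparison used 6 of the 48 samples of the series, 3 libraries of each line, chosen by their labelled genotype and age. The chr4-2 line carries a T-DNA insertion in CHR4 in the Col background. The qem2 line was recovered from mutagenesis of a quintuple mutant (svp flc ft tsf soc1) and carries another mutation in CHR4. Both lines thus have a mutated CHR4, and they differ in the loss of SVP, FLC, FT, TSF and SOC1 and in the CHR4 allele. The labels name no alleles of the flowering loci, and other changes induced in the qem2 background were not analysed here. The quintuple line and the wild type (WT, Col) at 3 weeks, with 3 libraries each, served as a second pair that differs by the same 5 losses with CHR4 intact. All plants grew with 8 h of light and 16 h of dark at 21 °C, and each library came from 15 pooled apices enriched for the apical meristem.

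CHR4, also called PKR1, belongs to the CHD family of chromatin remodellers, which use ATP to move nucleosomes and are related to PICKLE. SVP and FLC are MADS-box transcription factors that repress flowering. FT and its paralogue TSF are small mobile proteins that move from leaf to apex and act with the bZIP factor FD, and SOC1 is a MADS-box factor that promotes flowering downstream of them. In short days Arabidopsis flowers late, and gibberellin and the age-regulated SPL factors take a large part in the transition.

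Reads assigned to genes numbered 7.61 M, 18.9 M and 19.3 M in chr4-2 and 12.5 M, 14.5 M and 12.2 M in qem2 (M, 1000000 reads). Levels are given as CPM, reads per 1000000 on library sizes scaled by TMM, and libraries of a line are written in the order of replicates 1, 2 and 3. Log2 fold changes (qem2 over chr4-2 unless stated, with standard error, SE) and adjusted p-values come from an edgeR quasi-likelihood fit of 47 libraries with Benjamini-Hochberg adjustment over 19566 genes. Genes with an adjusted p under 0.05 are those called. The chr4-2 replicate 1 library stood apart: it was the shallowest, its TMM factor was 0.874 against 0.948 to 1.00 in the other 11 libraries of this age, and 10 genes took 4.65% of its reads against 3.41% to 3.76%. In bulk apices, fewer cells of a type and less RNA per cell cannot be told apart.

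The apical meristem was represented in both lines. The homeobox gene STM, which maintains the meristem, stood at 63.0, 51.5 and 53.6 CPM in chr4-2 and at 72.6, 77.5 and 82.2 CPM in qem2 (log2 fold change 0.47, adjusted p = 0.102). The stem-cell genes CLV3 and WUS, expressed in few cells, lay between 0 and 0.73 CPM in the 6 libraries. RBCS1A, encoding the small subunit of Rubisco in green tissue, stood at 3202 to 4597 CPM in chr4-2 and 2227 to 2576 CPM in qem2, so leaf tissue was present in these samples. The seed genes LEC1 and CRA1 had no read in any of the 6.

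The mutated loci separated the lines. CHR4 (AT5G44800) stood at 65.3, 80.6 and 82.2 CPM in chr4-2 and at 239, 266 and 248 CPM in qem2. The log2 fold change was 1.72 (SE 0.08, adjusted p = 8.91e-18), and every qem2 library lay far above every chr4-2 library. WT held 159 to 178 CPM and quintuple 166 to 186 CPM, so chr4-2 lay below and qem2 above both lines with intact CHR4. Against WT the chr4-2 value was lower by a log2 fold change of -1.16, and against quintuple the qem2 value was higher by 0.50 (adjusted p = 5.63e-13 and 0.000168). These comparisons share libraries with the main one, and 0.818% and 1.05% of tested genes were called in them.

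SVP (AT2G22540) had 106, 84.0 and 93.7 CPM in chr4-2 and 32.6, 32.9 and 45.9 CPM in qem2. It fell with a log2 fold change of -1.35 (SE 0.14, adjusted p = 4.52e-08), with no overlap between the lines. FLC (AT5G10140) had 19.4, 18.16 and 13.2 CPM in chr4-2 and 6.54, 6.31 and 5.25 CPM in qem2. Its log2 fold change of -1.47 (SE 0.38) passed narrowly (adjusted p = 0.0426), and the call ended without any 1 of the libraries other than chr4-2 replicate 3 (adjusted p up to 0.170). SOC1 (AT2G45660) ran the other way, with 2.56, 2.36 and 4.20 CPM in chr4-2 and 6.54, 8.37 and 5.50 CPM in qem2. Its log2 fold change was 1.13 (SE 0.26, adjusted p = 0.0159), and the call ended without qem2 replicate 2, chr4-2 replicate 1 or chr4-2 replicate 2 (adjusted p up to 0.139). Gene-level counts do not say which part of a mutated gene the reads cover. FT had 4 reads in the 3 qem2 libraries and 0 in chr4-2, and TSF had 0 and 2. Neither was tested.

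**Figure D1:**
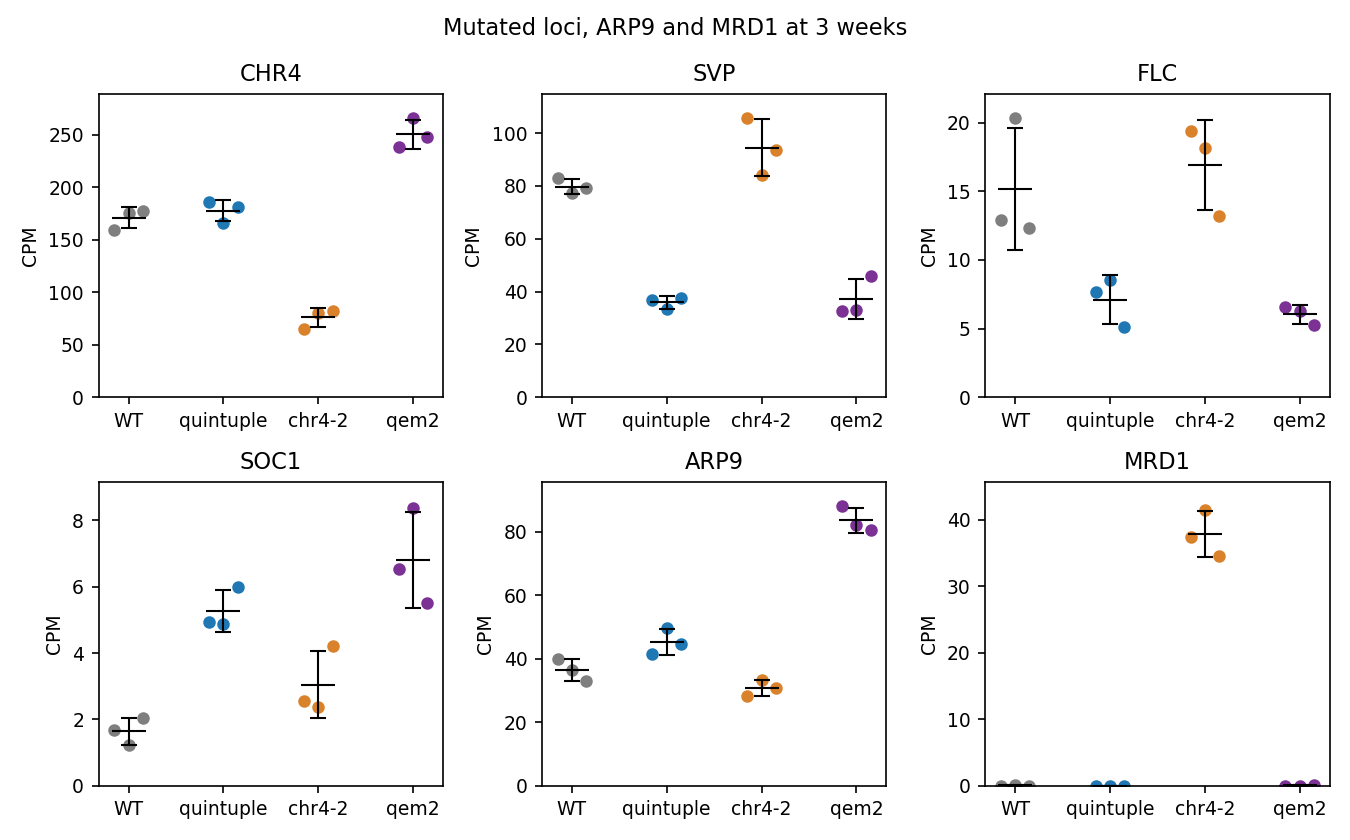
CPM of CHR4, SVP, FLC, SOC1, ARP9 and MRD1 in the 12 libraries of 3 weeks, with a point per library and the mean and SD of each line (n = 3) as bars on axes that start at 0. CHR4 and ARP9 are highest in qem2, SVP and FLC are low in both quintuple and qem2, and MRD1 is near 37.8 CPM in chr4-2 and at or near 0 in the other lines.

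Between qem2 and chr4-2, 260 of the 19566 tested genes (1.33%) were called, 122 higher (0.624%) and 138 lower (0.705%) in qem2. Rises were larger than falls: the median log2 fold change was 0.87 among the higher genes and -0.55 among the lower ones. A log2 fold change of 1 or more was reached by 57 of the higher genes, and a fall of that size by 23 of the lower ones. The CPM of the lines did not overlap for 259 of the 260, against 26.1% of all tested genes. The count depended on single libraries: it was 120 without qem2 replicate 1, 85 without qem2 replicate 2, 101 without qem2 replicate 3, 120 without chr4-2 replicate 1 and 156 without chr4-2 replicate 2. Just inside the threshold lay PUM12 (log2 fold change 2.21, adjusted p = 0.0492), and just outside it AT5G07900 (-0.55, 0.0501).

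**Figure D2:**
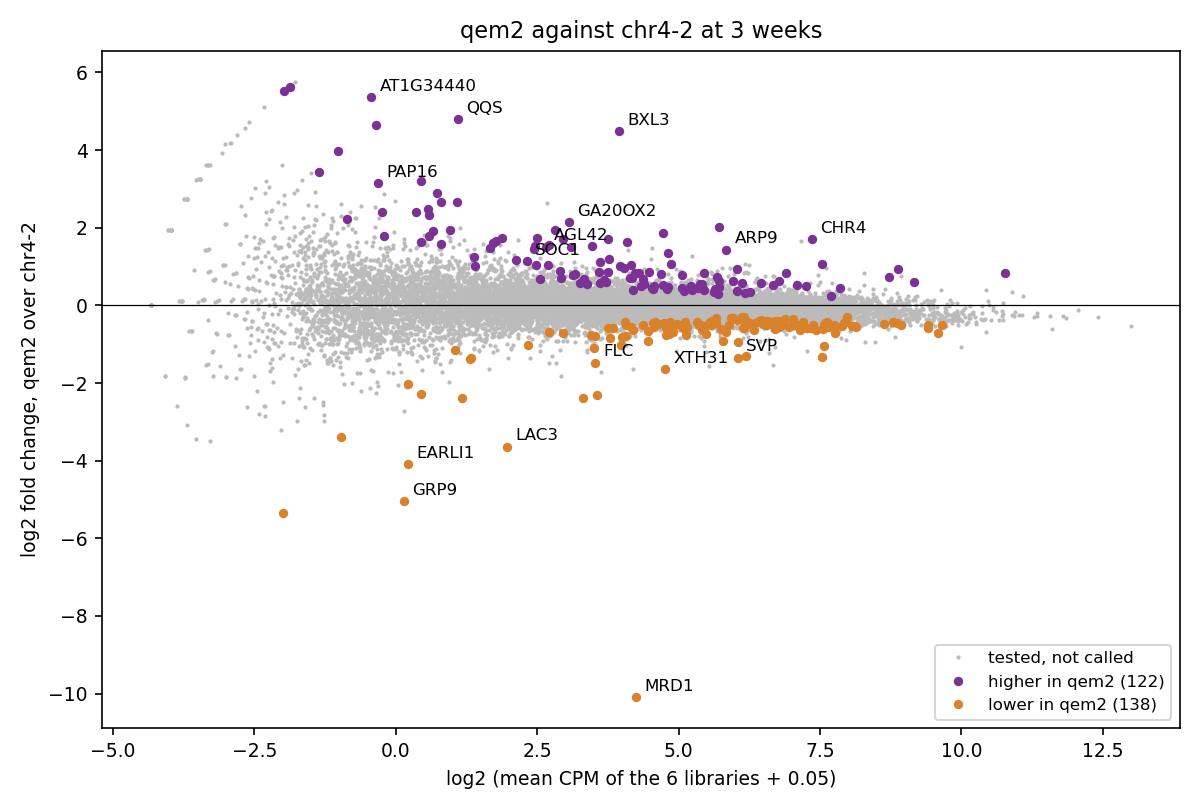
Log2 fold change of qem2 over chr4-2 against the log2 mean CPM of the 6 libraries, with a point per tested gene. Purple points are the 122 genes called higher and orange points the 138 called lower in qem2. MRD1 at -10.09 stands alone at the bottom, and most orange points lie between 0 and -1 at middle to high levels.

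The second pair of lines, quintuple and WT, shares no library with qem2 and chr4-2 and differs by the same 5 losses. There 79 genes (0.404%) were called, 45 higher (0.230%) and 34 lower (0.174%) in quintuple. Of the 260 genes called between qem2 and chr4-2, 46 were called in the same direction between quintuple and WT (17.7% of the 260 and 58.2% of the 79), and 0 in the opposite direction. By direction, 32 of the 122 higher genes (26.2%) and 14 of the 138 lower genes (10.14%) were called in both pairs. Whether called or not, 116 of the 122 higher genes (95.1%) had a log2 fold change above 0 in quintuple over WT, where 49.7% of all tested genes did. Of the 138 lower genes, 127 (92.0%) lay below 0 there, against 50.2% of all tested genes. The medians in quintuple over WT were 0.56 for the higher and -0.20 for the lower genes.

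**Figure D3:**
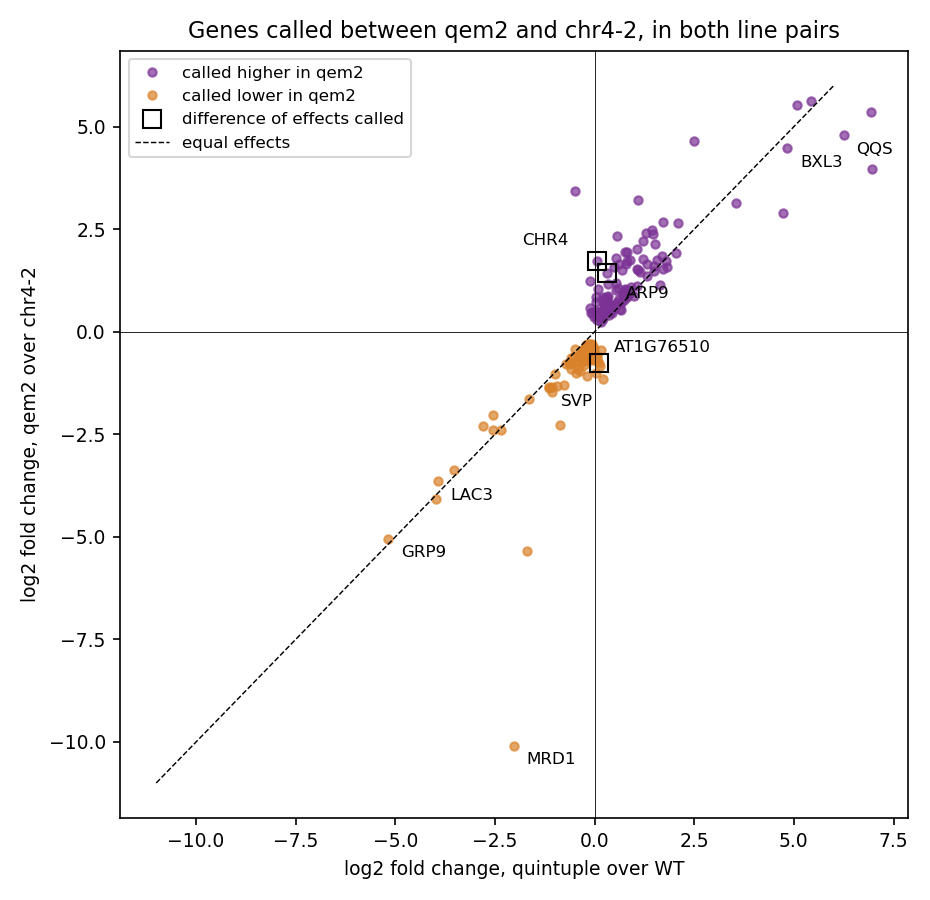
Log2 fold change of qem2 over chr4-2 (vertical) against that of quintuple over WT (horizontal), with a point for each of the 260 genes called between qem2 and chr4-2. The dashed line marks equal effects, and squares mark the 3 genes with a called difference between the effects: CHR4 at 1.72 and ARP9 at 1.44, both higher in qem2, and AT1G76510 at -0.76. Most points lie in the quadrants of equal sign.

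The difference between the effects of the pairs was tested directly, as qem2 minus chr4-2 less quintuple minus WT. It was called for 3 of 19566 genes (0.0153%), CHR4, ARP9 and AT1G76510. All 3 belong to the 260. An unadjusted p under 0.05 was reached by 794 genes (4.06%), no more than such a threshold passes where no effects differ. For CHR4 the effects differed by 1.66 on the log2 scale (adjusted p = 1.23e-12).

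ARP9 (AT5G43500), an actin-related protein gene, had 28.3, 33.4 and 30.6 CPM in chr4-2 and 88.1, 82.2 and 80.5 CPM in qem2. The qem2 libraries lay above those of every other line, since WT held 33.1 to 39.8 CPM and quintuple 41.6 to 49.6 CPM. The log2 fold change was 1.44 (SE 0.10, adjusted p = 1.81e-12) between qem2 and chr4-2 and 0.31 between quintuple and WT (adjusted p = 0.283). The effects differed by 1.12 (adjusted p = 2.75e-05). ARP9 lies 614 kb from CHR4 on chromosome 5 (RefSeq gene starts, TAIR10.1). Its nearest tested neighbours, RPP8 and AT5G43530, had log2 fold changes of 0.21 and 0.48 (adjusted p = 0.493 and 0.368).

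AT1G76510, encoding an ARID/BRIGHT DNA-binding domain protein, had 51.0, 40.0 and 41.6 CPM in chr4-2 and 30.0, 23.9 and 23.9 CPM in qem2. It fell by 0.76 on the log2 scale (SE 0.12, adjusted p = 9.90e-05), with no overlap between the lines. Between quintuple and WT its log2 fold change was 0.11, and the effects differed by -0.86 (adjusted p = 0.0283). The call of that difference ended without qem2 replicate 2 or 3, chr4-2 replicate 1, or any 1 library of quintuple or WT (adjusted p up to 0.279), and in the fit of the 12 libraries of 3 weeks (adjusted p = 0.0767).

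Next in the test of the difference came AT2G47250, an RNA helicase gene, and RECQ4B, a RecQ DNA helicase gene, both without a called difference (adjusted p = 0.267 and 0.343). AT2G47250 rose from 125.5 ± 1.25 to 177 ± 2.14 CPM (SD, n = 3; log2 fold change 0.50, adjusted p = 3.27e-05). RECQ4B rose from 14.0 ± 2.57 to 25.4 ± 1.60 CPM (SD, n = 3; log2 fold change 0.84, adjusted p = 9.90e-05). In WT and quintuple both genes lay below every qem2 library.

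Among the largest rises in qem2, BXL3 (AT5G09730), a beta-xylosidase gene of the cell wall, was the most precisely measured. It had 1.504, 1.65 and 0.86 CPM in chr4-2 and 29.3, 30.0 and 28.3 CPM in qem2. The log2 fold change was 4.48 (SE 0.29, adjusted p = 1.32e-13), with the qem2 libraries close together and far above chr4-2. Quintuple rose over WT by a similar amount (log2 fold change 4.84, adjusted p = 1.5e-12).

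QQS (AT3G30720), an orphan gene that affects the partition of carbon between starch and protein, had 0.15, 0 and 0.27 CPM in chr4-2 and 3.79, 4.46 and 3.92 CPM in qem2. Quintuple reached 10.2, 16.7 and 39.2 CPM, above every qem2 library, while WT stayed at or below 0.37 CPM. The log2 fold change was 4.79 between qem2 and chr4-2 (adjusted p = 0.000203) and 6.25 between quintuple and WT (adjusted p = 6.89e-08), and the difference between the effects was not called (adjusted p = 1).

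AT1G34440 had 53 reads in the qem2 libraries and 1 in chr4-2, a ratio of reads per library size of 59.1 (95% exact counting interval 10.2 to 2377, adjusted p = 0.000871). JP630 (AT1G23760), encoding a BURP-domain protein related to polygalacturonase, had 55 reads and 2, a ratio of 30.7 (95% exact counting interval 8.09 to 259, adjusted p = 0.00182). PAP16, a purple acid phosphatase gene, rose from 0.17 ± 0.11 to 1.33 ± 0.41 CPM (SD, n = 3; log2 fold change 3.14, adjusted p = 0.00220). AT1G51910, a receptor-like kinase gene, rose with a log2 fold change of 2.898 and AT5G34830 with 3.22 (adjusted p = 0.00632 and 0.00703). Leaving out any 1 of the 6 libraries kept these 5 calls, and those of BXL3 and QQS.

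For HKT1, AT5G37940 and PRE5 the calls were lost in some fits with 1 library left out. Every qem2 library lay above every chr4-2 library, but this was a condition for naming a gene among the largest rises. HKT1, a sodium transporter gene, had 0.52 ± 0.34 CPM in chr4-2 and 2.85 ± 0.54 CPM in qem2 (SD, n = 3; log2 fold change 2.67, adjusted p = 0.0370), and its call ended without any 1 library other than chr4-2 replicate 1 (adjusted p up to 0.128). AT5G37940 had a log2 fold change of 2.66 (adjusted p = 0.0107), and its call ended without qem2 replicate 2, chr4-2 replicate 1 or chr4-2 replicate 3. PRE5, a small bHLH gene of growth promotion, had a log2 fold change of 2.48 (adjusted p = 0.0370), and its call ended without any 1 of the 6 libraries (adjusted p of 0.0650 to 0.161).

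**Figure D4:**
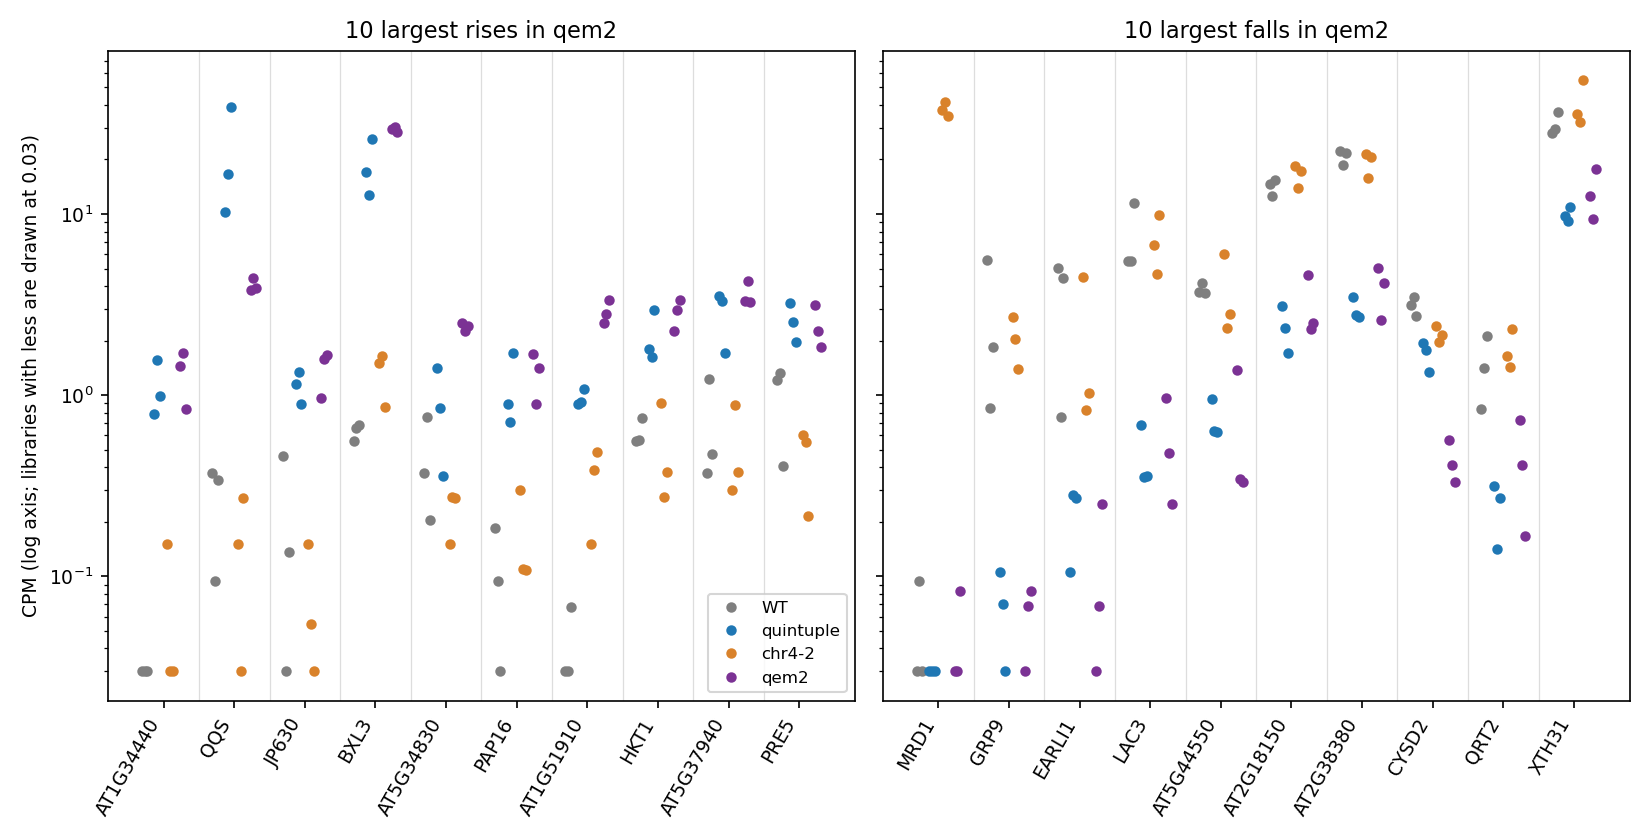
CPM on a log axis of the 10 largest rises (left) and 10 largest falls (right) in qem2, with a point per library of WT, quintuple, chr4-2 and qem2. Libraries under 0.03 CPM are drawn at 0.03. For most genes quintuple lies near qem2 and WT near chr4-2, and MRD1 is high in chr4-2 alone, at 34.6 to 41.4 CPM.

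The largest fall was that of MRD1 (AT1G53480), a gene named for its lower transcript level in the mto1 mutant of methionine metabolism. It had 37.4, 41.4 and 34.6 CPM in chr4-2 and 0, 0 and 0.08 CPM in qem2, which is 1646 reads against 1. The ratio of reads per library size was 1476 (95% exact counting interval 265 to 58351), and the fitted log2 fold change of -10.09 had an adjusted p of 6.25e-09. WT had 0, 0.09 and 0 CPM and quintuple had no read, so the chr4-2 libraries stood apart from all 3 other lines. With so few reads in WT and quintuple, the test of the difference between the effects gave an adjusted p of 1 for a fitted difference of -8.07. HEI10 (AT1G53490), a gene for meiotic crossovers and the next gene to MRD1, had 8.27, 8.67 and 7.00 CPM in chr4-2 and 3.71, 4.87 and 6.17 CPM in qem2. Its log2 fold change was -0.69 (adjusted p = 0.0414), and the call ended without qem2 replicate 1 or 2 or chr4-2 replicate 1 or 2 (adjusted p up to 0.216). WT held 4.22 to 5.20 CPM and quintuple 4.47 to 5.38 CPM, below every chr4-2 library. HEI10 was called higher in chr4-2 over WT (log2 fold change 0.75, adjusted p = 0.0327). In qem2 over chr4-2 it was also called lower at 4, 5 and 6 weeks (log2 fold changes -0.74, -1.03 and -0.93). The neighbour of MRD1 on the other side, MSL4, had a log2 fold change of 0.67 at 3 weeks (adjusted p = 0.461).

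Several other falls recurred in quintuple against WT. LAC3, a gene for a laccase of the cell wall, had 6.77, 4.66 and 9.91 CPM in chr4-2 and 0.97, 0.48 and 0.25 CPM in qem2 (log2 fold change -3.64, SE 0.53, adjusted p = 9.90e-05), and -3.93 in quintuple over WT (adjusted p = 4.33e-05). The class III peroxidase gene AT2G18150 had 18.3, 13.9 and 17.2 CPM in chr4-2 and 4.60, 2.33 and 2.50 CPM in qem2 (log2 fold change -2.39, SE 0.32, adjusted p = 1.20e-05), and -2.55 in quintuple over WT (adjusted p = 7.06e-06). For both genes every qem2 library lay below every chr4-2 library, which was a condition for being named among the largest falls.

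AT2G38380, another peroxidase gene, fell with a log2 fold change of -2.30 (adjusted p = 0.000712), against -2.80 in quintuple over WT (adjusted p = 6.23e-05). XTH31, which encodes a xyloglucan endotransglucosylase/hydrolase that loosens walls, fell from 40.8 ± 12.2 to 13.2 ± 4.21 CPM (SD, n = 3; log2 fold change -1.64, adjusted p = 0.00217), a call that ended without qem2 replicate 2 (adjusted p = 0.0512). CYSD2, a cysteine synthase gene, fell from 2.18 ± 0.22 to 0.44 ± 0.12 CPM (SD, n = 3; log2 fold change -2.28, adjusted p = 0.000371). For CYSD2 the log2 fold change in quintuple over WT was -0.86, which did not pass (adjusted p = 0.352), and the difference between the effects was not called (adjusted p = 1).

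The remaining large falls were also called lower in quintuple over WT. Their log2 fold changes there were -5.18 (GRP9), -3.98 (EARLI1), -2.34 (AT5G44550) and -2.54 (QRT2), with adjusted p of 0.0401, 0.0279, 0.0279 and 0.0240. Between qem2 and chr4-2 each call was lost in some fits with 1 library left out. The lines did not overlap, as the rule for naming these genes required. GRP9, a glycine-rich protein gene, had 2 reads in qem2 and 81 in chr4-2, a ratio of reads per library size of 36.3 in favour of chr4-2 (95% exact counting interval 9.74 to 305, adjusted p = 0.0440), and its call ended without any 1 of the 6 libraries (adjusted p up to 0.195). EARLI1, a lipid-transfer-like protein gene, had 4.51, 0.82 and 1.02 CPM in chr4-2 and 0 to 0.25 CPM in qem2 (log2 fold change -4.08, adjusted p = 0.0419), and its call ended without chr4-2 replicate 1 or any 1 qem2 library (adjusted p up to 0.210). AT5G44550, a CASP-like membrane protein gene, had a log2 fold change of -2.39 (adjusted p = 0.0181), lost without qem2 replicate 2 or 3 or chr4-2 replicate 1 (adjusted p up to 0.164). QRT2, a polygalacturonase gene of pollen separation, had -2.03 (adjusted p = 0.0375), lost without any 1 library other than qem2 replicate 1 (adjusted p up to 0.189).

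Because SVP and FLC bind the CArG box, a short A- and T-rich element recognised by MADS-box factors, the 250 bases before the RefSeq gene start were searched for it. The searched pattern was CC, then 6 bases that are each A or T, then GG. The search covered both strands at once, since that pattern, though not each sequence matching it, reads the same on each. It occurred in the windows of 523 of 19566 tested genes (2.67%), of 5 of the 122 higher genes (4.10%) and of 4 of the 138 lower genes (2.899%), shares near the background. Windows are printed for the fallen peroxidase gene AT2G18150 and the raised gene AT5G10740, which hold the element, and for the raised genes BXL3 and GA20OX2, which do not. Sequences and coordinates are from RefSeq, assembly TAIR10.1, written 5′ to 3′ toward the gene, with the CArG box in capitals.
AT2G18150, chr2:7893710-7893959, minus strand: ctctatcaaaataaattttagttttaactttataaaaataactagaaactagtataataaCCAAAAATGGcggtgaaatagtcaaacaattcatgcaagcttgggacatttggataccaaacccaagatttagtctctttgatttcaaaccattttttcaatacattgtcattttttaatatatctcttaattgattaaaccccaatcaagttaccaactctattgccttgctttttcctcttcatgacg
AT5G10740, chr5:3396201-3396450, minus strand: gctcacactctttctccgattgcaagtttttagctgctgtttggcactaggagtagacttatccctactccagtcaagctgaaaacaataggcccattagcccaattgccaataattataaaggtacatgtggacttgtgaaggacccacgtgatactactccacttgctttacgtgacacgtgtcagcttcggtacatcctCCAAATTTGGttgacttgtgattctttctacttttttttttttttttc
BXL3, chr5:3018343-3018592, minus strand: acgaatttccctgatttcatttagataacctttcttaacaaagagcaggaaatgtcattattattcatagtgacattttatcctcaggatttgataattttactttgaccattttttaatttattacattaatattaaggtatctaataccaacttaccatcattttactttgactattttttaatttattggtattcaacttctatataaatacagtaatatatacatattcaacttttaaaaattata
GA20OX2, chr5:21056882-21057131, minus strand: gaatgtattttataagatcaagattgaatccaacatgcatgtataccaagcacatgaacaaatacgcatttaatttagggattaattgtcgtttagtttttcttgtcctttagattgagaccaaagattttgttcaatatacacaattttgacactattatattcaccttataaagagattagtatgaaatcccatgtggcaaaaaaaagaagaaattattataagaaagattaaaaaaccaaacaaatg
The element ends 180 bases before the start of AT2G18150 and 38 bases before that of AT5G10740. AT5G10740 had 2.71, 3.18 and 2.48 CPM in chr4-2 and 7.75, 7.75 and 8.67 CPM in qem2 (log2 fold change 1.52, adjusted p = 3.30e-05). It was picked for this display after its values were seen. A matching element in a window is a description and says nothing of binding.

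Of 14 tested genes that promote flowering, 4 were called higher and 0 lower in qem2 (background 0.624% and 0.705%), and 2 of the 4 calls, those of SPL9 and FDP, depended on single libraries. Whether called or not, 11 had a log2 fold change above 0 and 2 below (lowest -0.54), where 50.7% of all tested genes lay above 0. Their median was 0.55, or 0.54 over the 11 with more than 3 reads in each line, against 0.00376 for all tested genes. FD (AT4G35900), the bZIP partner of FT, had 15.8, 14.0 and 17.3 CPM in chr4-2 and 26.1, 31.1 and 28.7 CPM in qem2, with no overlap. Its log2 fold change was 0.87 (SE 0.13, adjusted p = 7.08e-05), and quintuple over WT gave 0.98 (adjusted p = 3.44e-05). AGL42 (AT5G62165), a MADS-box relative of SOC1, had 1.35, 3.46 and 4.26 CPM in chr4-2 and 9.20, 10.4 and 8.84 CPM in qem2 (log2 fold change 1.51, SE 0.24, adjusted p = 0.000148). In quintuple over WT AGL42 had 0.70, which was not called (adjusted p = 0.294), and the difference between the effects was not called either.

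SPL9, a factor of the age pathway, rose from 34.3 ± 2.34 to 50.6 ± 4.65 CPM (SD, n = 3; log2 fold change 0.56, adjusted p = 0.0108). That call ended without qem2 replicate 3 or chr4-2 replicate 3 (adjusted p up to 0.0894). FDP, the paralogue of FD, had a log2 fold change of 1.01 (adjusted p = 0.0488), and its call ended without any 1 library other than chr4-2 replicate 1 (adjusted p up to 0.180).

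Floral repressors showed no call among 17 tested genes, with a median of 0.13. AGL15, a MADS-box repressor, was nearest among those above 0 (log2 fold change 0.81, adjusted p = 0.0539), and TOE2, an AP2-type repressor, among those below (-0.46, adjusted p = 0.0682). Of 9 tested floral identity genes 0 were called. LFY, which directs floral fate, had 1.35, 1.43 and 1.18 CPM in chr4-2 and 2.26, 2.95 and 3.17 CPM in qem2, a log2 fold change of 1.08 that missed the threshold (adjusted p = 0.0520). Their median was 0.63, or 0.49 over the 6 genes with more than 3 reads in each line.

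Among 21 tested gibberellin genes, GA20OX2 (AT5G51810), encoding an oxidase late in gibberellin synthesis that SVP is known to repress, was called higher and the others were not. It had 3.91, 3.46 and 2.05 CPM in chr4-2 and 19.0, 15.2 and 6.09 CPM in qem2, a wide spread that did not overlap chr4-2. The log2 fold change was 2.14 (SE 0.38, adjusted p = 0.00130), and leaving out any 1 of the 6 libraries kept the call. Quintuple over WT gave 1.504 (adjusted p = 0.0629). The list's median was 0.27, and 0.624% of all tested genes were called higher.

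Of 25 meristem and boundary genes, 2 were called higher and 0 lower (background 0.624% and 0.705%), with a median of 0.12. Both are class I KNOX homeobox genes, which keep meristem cells undifferentiated. KNAT1 (AT4G08150) had 43.5, 34.1 and 37.5 CPM in chr4-2 and 55.9, 65.6 and 68.7 CPM in qem2 (log2 fold change 0.73, SE 0.16, adjusted p = 0.0149). KNAT2 (AT1G70510) had 6.77, 4.94 and 7.65 CPM in chr4-2 and 11.9, 10.2 and 11.8 CPM in qem2 (log2 fold change 0.82, SE 0.17, adjusted p = 0.00731). Neither gene's groups overlapped. The call of KNAT1 ended without qem2 replicate 2 or 3 or chr4-2 replicate 2 or 3 (adjusted p up to 0.0832), and that of KNAT2 without chr4-2 replicate 2 (adjusted p = 0.0769). In quintuple over WT the log2 fold changes were 0.20 and 0.26, neither called, and the difference between the effects was not called for either (adjusted p = 1).

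Further genes were picked after their values were seen. TEL2, which encodes a MEI2-like RNA-binding protein of the shoot apex, had 0.30, 0.38 and 0.43 CPM in chr4-2 and 2.02, 2.06 and 2.17 CPM in qem2 (log2 fold change 2.39, SE 0.31, adjusted p = 4.55e-06). CYP78A5, also called KLUH, a cytochrome P450 gene that prolongs organ growth, had 91.4, 83.2 and 82.0 CPM in chr4-2 and 145, 171 and 142 CPM in qem2 (log2 fold change 0.84, SE 0.13, adjusted p = 9.38e-05). In both, every qem2 library lay above every chr4-2 library. Of 9 tested genes with a UBQ symbol, which encode ubiquitin, 5 were called higher and 0 lower (background 0.624% and 0.705%). UBQ4 had a log2 fold change of 1.08, UBQ14 of 0.94, UBQ10 of 0.85 and UBQ3 of 0.73 (adjusted p = 6.97e-07, 0.00140, 0.000226 and 0.00249), and these 4 were also called higher in quintuple over WT, by 0.91, 0.88, 0.82 and 0.57. UBQ11 had 0.61 (adjusted p = 0.0488), was not called in quintuple over WT (0.51, adjusted p = 0.262), and lost its call without any 1 library other than chr4-2 replicate 1 (adjusted p up to 0.159). The 4 not called, UBQ1, UBQ5, UBQ6 and UBQ7, had log2 fold changes of -0.40 to 0.09. Some UBQ genes hold near-identical repeats, so reads may be split among those genes and their single values are uncertain.

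By a grouping made after the values were seen, 78 of the 138 lower genes (56.5%) have RefSeq text that names the chloroplast, plastid or thylakoid, against 2770 of all 19566 tested genes (14.2%) and 10 of the 122 higher genes (8.20%). The text is a loose guide to plastid genes. It marks the polycomb gene CLF, for example, and leaves out RBCS1A and RABE1b, a gene for a plastid elongation factor. Over all 2770 tested genes with such text the median log2 fold change was -0.14, and 1959 (70.7%) lay below 0, against 49.2% of all tested genes. The median of the 78, which were chosen as called lower, was -0.50. They include CPN60A, a plastid chaperonin gene, at 1048, 931 and 883 CPM in chr4-2 and 713, 629 and 659 CPM in qem2 (log2 fold change -0.52, adjusted p = 0.0207). RPL4, for a protein of the plastid ribosome, fell by 0.52 on the log2 scale (adjusted p = 0.0448). POR C, for an enzyme of chlorophyll synthesis, fell by 0.65 (adjusted p = 0.0259). GPRI1, also called GLK1, a transcription factor gene of chloroplast development, fell by 0.91 (adjusted p = 0.0295). GNC, another such regulator, has no such text and is not among the 78, and it also fell by 0.91 (adjusted p = 0.0262).

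These calls were fragile. The number of lower genes with such text was 21 without qem2 replicate 1, 2 without qem2 replicate 2, 9 without qem2 replicate 3, 13 without chr4-2 replicate 1, 32 without chr4-2 replicate 2 and 72 without chr4-2 replicate 3. CPN60A, RPL4, POR C and GPRI1, and GNC outside the 78, lost their call without qem2 replicate 2 and without chr4-2 replicate 1 (adjusted p up to 0.242). All 2770 genes with the text, called or not, took 29.5%, 26.2% and 25.7% of the CPM in chr4-2 and 24.03%, 23.05% and 23.9% in qem2, so every qem2 library lay below every chr4-2 library, with or without chr4-2 replicate 1. WT held 25.7% to 27.2% and quintuple 24.5% to 25.8%, which overlap. In quintuple over WT 77 of the 78 had a log2 fold change below 0, where 1859 of the 2770 did. The median there was -0.19 for the 78 and -0.06 for the 2770, and 0 of either were called lower. The difference between the effects was called for 0 of the 78, where 0.0153% of all tested genes were called. Its median was -0.31 over the 78, which were chosen as called lower in qem2, and -0.08 over the 2770.

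Of 11 leaf photosynthesis genes 0 were called. All 11 had a log2 fold change below 0 (median -0.64), and 8 had groups that did not overlap, against 14.0% of all tested genes that did not overlap and were lower. Their summed level was 14611, 9849 and 9189 CPM in chr4-2 and 7959, 6123 and 8126 CPM in qem2, lower in every qem2 library. WT held 8746 to 11942 CPM and quintuple 7054 to 10936 CPM, which overlap. All 12 vascular genes lay above 0 (median 0.47, 0 called, 8 not overlapping, against 12.1% of all tested genes that did not overlap and were higher), with sums of 425 to 451 CPM in chr4-2 and 540 to 583 CPM in qem2. In WT the vascular sum was 395 to 442 CPM and in quintuple 433 to 512 CPM, which overlap. The part of leaf or vascular tissue in the changes above was not tested. Of 12 flavonoid and anthocyanin genes 0 were called, and 11 lay below 0, with a median of -0.61 and sums of 888 to 1435 CPM in chr4-2 and 665 to 804 CPM in qem2. Their sum was 663 to 927 CPM in WT and 593 to 626 CPM in quintuple, so the qem2 sums lay within the WT range.

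Other lists held few or no calls, where 1.33% of all tested genes were called. The 21 tested chromatin regulators, which include the polycomb genes CLF and SWN and the remodeller genes PKL and CHR5, had 0 calls and a median of 0.15. Of 10 meiosis genes HEI10 alone was called, and their median was -0.07. There were 0 calls among 10 auxin genes (median 0.06), 9 cell cycle genes (-0.22), 12 salicylic acid defence genes (0.16), 15 jasmonate, wounding and touch genes (-0.18), 15 rapid stress genes (-0.14), 5 heat shock genes (0.04), 8 cold and abscisic acid genes (0.34), 14 circadian clock genes (0.15), 17 glucosinolate genes (-0.19) and 3 embryo and seed genes (0.04). Of 4 root genes WOX5, a homeobox gene of the root stem-cell niche, was called lower (log2 fold change -1.37, adjusted p = 0.0407), a call that ended without qem2 replicate 1 or 3 or chr4-2 replicate 2 or 3 (adjusted p up to 0.166). The summed level of the root list, drawn up after the values were seen, was 67.6 to 85.7 CPM in chr4-2 and 61.1 to 79.6 CPM in qem2, which overlap.

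**Figure D5:**
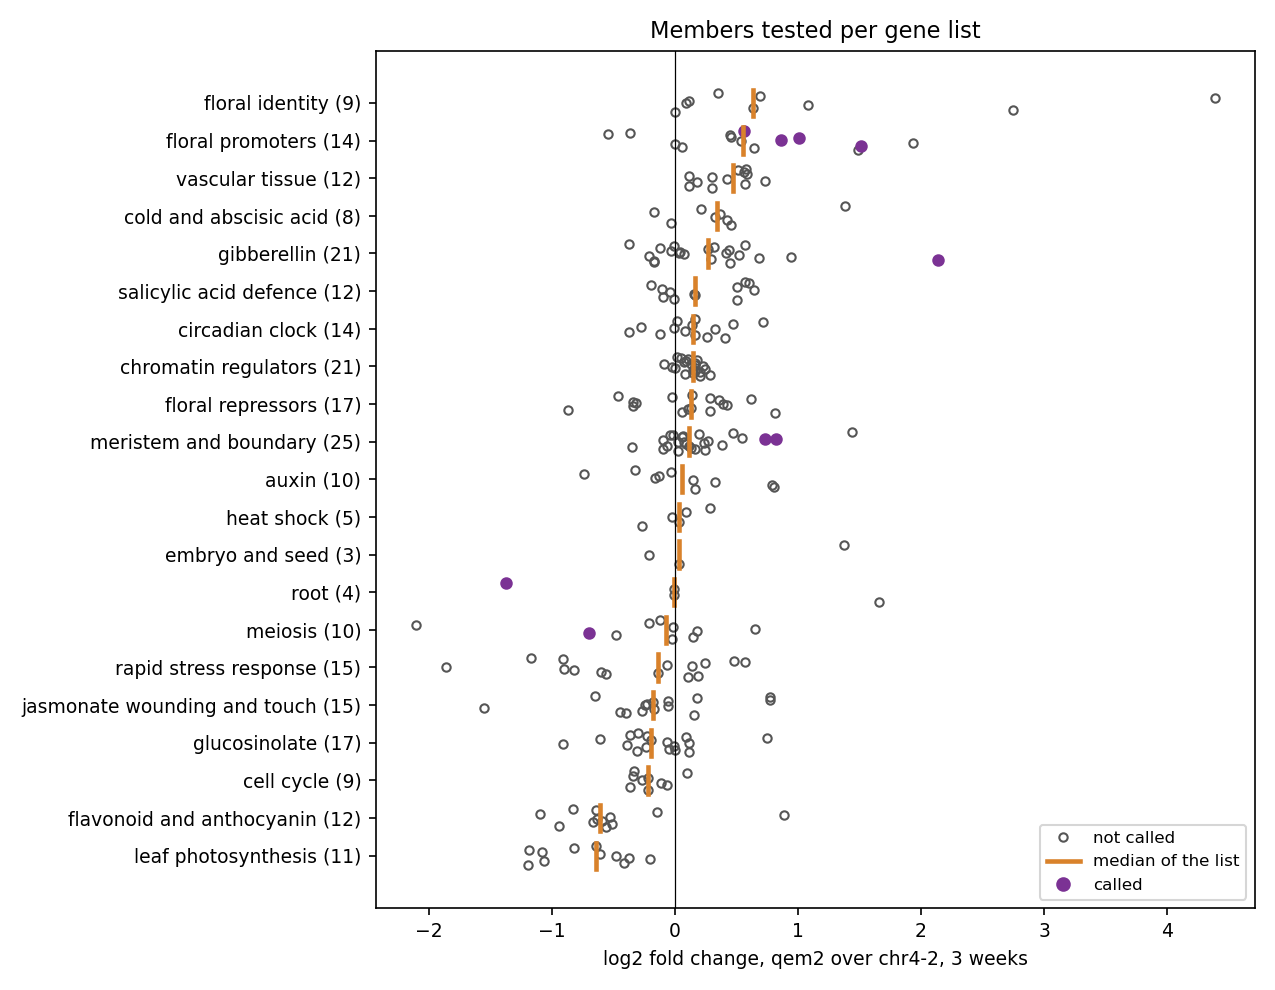
Log2 fold change of qem2 over chr4-2 for the tested members of each gene list (number tested in parentheses), with filled points for called genes and an orange bar at the median. Floral promoters hold 4 called points above 0, all 11 leaf photosynthesis genes lie below 0, and all 12 vascular genes lie above 0.

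Genes near the mutated loci were called about as often as genes elsewhere. Within 1 Mb of CHR4, 5 of 348 tested genes were called (1.44%), within 1 Mb of SVP 6 of 364 (1.65%), of FLC 5 of 451 (1.11%), of FT 2 of 333 (0.601%), of TSF 4 of 353 (1.13%) and of SOC1 5 of 460 (1.09%), against 1.33% of all tested genes. The following neighbours were picked after their values were seen. RABE1b, a gene for a plastid elongation factor, lies 10.9 kb from TSF and was called lower in qem2 (log2 fold change -0.50, adjusted p = 0.0198). In quintuple over WT it was not called (-0.23, adjusted p = 0.704), and the difference between the effects (-0.27) was not called either. The call in qem2 ended without qem2 replicate 2 or 3 or chr4-2 replicate 1 or 2 (adjusted p up to 0.150). AT2G22420, 66.6 kb from SVP, was called higher in both pairs (log2 fold changes 1.04 and 0.77). BXL3 lies 158 kb and AT5G10740 220 kb from FLC, and both were also called higher in quintuple over WT (log2 fold changes 4.84 and 1.07). CYP706A3, a cytochrome P450 gene 85.7 kb from CHR4, had a log2 fold change of 1.53 between qem2 and chr4-2 and 1.71 between quintuple and WT, both called. A part of linked sequence differences in these values was not tested.

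The same pair of lines was sampled at 4, 5 and 6 weeks in other libraries. At 4 weeks 5445 genes (27.8%) were called between qem2 and chr4-2, at 5 weeks 326 (1.67%, with 2 qem2 libraries) and at 6 weeks 869 (4.44%). Of the 122 genes higher at 3 weeks, 82 (67.2%) were called higher at 4 weeks, 38 (31.1%) at 5 weeks and 40 (32.8%) at 6 weeks, where 15.2%, 0.700% and 1.96% of all tested genes were higher. Of the 138 lower genes, 78 (56.5%), 10 (7.25%) and 16 (11.6%) were called lower, where 12.7%, 0.966% and 2.48% of all tested genes were. Calls in the opposite direction numbered 1, 0 and 9.

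Called at all 4 ages were 29 of the higher and 9 of the lower genes. BXL3 rose at each age, with log2 fold changes of 4.48, 5.12, 5.91 and 6.62 at 3, 4, 5 and 6 weeks. CHR4 gave 1.72, 1.72, 1.53 and 1.48, ARP9 1.44, 1.64, 1.73 and 1.60, and FD 0.87, 0.81, 0.76 and 0.70. Among the genes lower at all ages, MRD1 gave -10.09, -6.25, -5.12 and -7.64, SVP -1.35, -1.03, -1.35 and -1.49, and XTH31 -1.64, -4.25, -3.27 and -4.19. KNAT1 and KNAT2 were called at 3 weeks and not later, with log2 fold changes of -0.24 to 0.05 at 4 to 6 weeks. AT2G38380 was lower at 3 and 4 weeks (-2.30 and -5.06) and was called higher at 6 weeks (1.65, adjusted p = 0.0347). HKT1 was higher at 3 and 4 weeks (2.67 and 2.08) and was called lower at 6 weeks (-5.94, adjusted p = 0.0473). GA20OX2 had log2 fold changes of 1.64, -0.42 and -1.51 at 4, 5 and 6 weeks, of which the first was called (adjusted p = 0.00349). Of the 78 genes with chloroplast, plastid or thylakoid in their text, 38 were called lower at 4 weeks, 1 at 5 weeks and 2 at 6 weeks.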

How the data were processed

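The authors deposited a table of read counts, with a row per gene and 48 sample columns of whole numbers. The submitters' processing notes name TopHat2, SAMtools, HTSeq, DESeq2 and the build TAIR10, with no version or setting. TruSeq libraries were made from 3 independent biological replicates a group, per the labels' protocols, and the strand setting is not stated, so antisense or overlapping genes and near-identical copies may share reads. The column labelled as replicate 3 of qem2 at 5 weeks was left out, because its counts are those of replicate 3 of quintuple at 5 weeks throughout.

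The other 47 libraries in 16 groups entered 1 edgeR 4.0.16 fit in R 4.3.3 (TMM, filterByExpr, estimateDisp, glmQLFit with robust, glmQLFTest), and 19566 of 27206 genes were tested. The threshold for a call was a Benjamini-Hochberg adjusted p under 0.05. The biological coefficient of variation was 14.7%. In the shallowest of the 6 libraries, 10 reads are 1.504 CPM. Symbols are from RefSeq (TAIR10.1), which matched 26719 identifiers (98.2%). The procedure was tested on simulated counts.

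Genes are named by a rule: the 6 mutated genes, the 10 highest and 10 lowest log2 fold changes among called genes whose lines did not overlap and whose higher line had at least 1 CPM, up to 4 called members a list, and the 5 genes of smallest adjusted p in the test of the difference. Other genes are marked as chosen after their values were seen. The members and the 21 lists were chosen with earlier results of these data known. Counting intervals were computed on reads summed over the libraries of a line. They cover counting error only and not the spread between replicates, and no molecular identifiers are stated.

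Results were recomputed with DESeq2 1.42.0, RLE factors, all genes with a read, fits of 6 or 12 libraries, a replicate block, all 48 columns, a minimum fold change, and each library left out in turn. Leaving out libraries for the genes with plastid text was added after seeing the data.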

Additional observations from a re-analysis of the deposited data

Results flagged for a closer look

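For 3 genes the effect of qem2 over chr4-2 differed from that of quintuple over WT by the test of the difference itself (edgeR, Benjamini-Hochberg adjusted over 19566 genes). CHR4 differed by 1.66 on the log2 scale (adjusted p = 1.23e-12), with every qem2 library above and every chr4-2 library below all 6 libraries of WT and quintuple. ARP9 differed by 1.12 (adjusted p = 2.75e-05), with every qem2 library above all 9 others of its age. AT1G76510 differed by -0.86 (adjusted p = 0.0283), with every qem2 library below all 9 others, and its call ended in 9 of the 12 fits without a library (adjusted p up to 0.279) and in the fit of the 12 libraries of 3 weeks (adjusted p = 0.0767). Leaving out any 1 of the 12 libraries kept the calls of CHR4 and ARP9.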

How the results depend on the processing

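The number of genes called between qem2 and chr4-2 (260) was 80 with a log2 fold change of 1 or more in size, 518 with DESeq2, 903 in a fit of the 6 compared libraries, 1642 in a fit of the 12 libraries of 3 weeks and 854 with the replicate block, and 85 to 196 with a library left out. For quintuple against WT (79) it was 184 in the fit of 6 libraries and 140 with the replicate block, and 30 to 80 with a library left out. The cause was not tested. Of the 260, 259 were also called by DESeq2, 215 by the fit of 6 libraries and 251 by that of 12. The called differences between the effects numbered 2 to 4 under every alternative run, and 3 with the replicate block. The block changed no call among the 36 tested named genes, nor did RLE factors or DESeq2, and no log2 fold change of them reversed. The call ended for 5 of them with no count filter (FLC, GRP9, QRT2, FDP, HEI10), for 2 in the fit of 6 libraries (FDP, HEI10) and for FLC with all 48 columns. Residuals of same-numbered qem2 and chr4-2 libraries correlated by 0.09, 0.17 and -0.01, and no label states a pairing, so a call gained or lost under the block says nothing of the size of an effect. Depth limits low genes: 3 reads are 0.162 to 0.451 CPM in the chr4-2 libraries.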

Other observations

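Of 7 tested genes with a superoxide dismutase symbol (CSD, FSD or MSD), a family picked after its values were seen, 1 was called higher and 2 lower in qem2 (background 0.624% and 0.705%). Each of the 3 calls depended on single libraries. The other 4, CSD1, CSD3, FSD2 and MSD1, were not called, with log2 fold changes of -0.42 to -0.19. FSD1, for an iron form, had 6.77, 22.3 and 4.47 CPM in chr4-2 and 42.3, 48.6 and 33.0 CPM in qem2 (log2 fold change 1.86, edgeR adjusted p = 0.0244), with no overlap. CSD2, for a copper and zinc form of the plastid, had 574, 388 and 424 CPM in chr4-2 and 322, 320 and 350 CPM in qem2 (log2 fold change -0.48, adjusted p = 0.0299), and FSD3, for a plastid iron form, had a log2 fold change of -0.58 (adjusted p = 0.0398). In quintuple over WT the log2 fold changes were 1.68, -0.09 and -0.19, none called. The call of FSD1 ended without qem2 replicate 1 or 2 or chr4-2 replicate 1 or 3, that of CSD2 without chr4-2 replicate 1 or any 1 qem2 library, and that of FSD3 without any 1 of the 6 libraries (adjusted p up to 0.133, 0.263 and 0.162).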
